A study of Mus musculus with 12 samples.

Results

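AP-1 is a family of dimeric transcription factors, and 8 of its genes were followed here across 12 RNA-seq samples of a mouse neuronal line: Fos, Fosb and Fosl2 of the FOS branch, Jun, Junb and Jund of the JUN branch, Atf3 of the ATF branch and Maff of the small MAF branch. The members were chosen by gene name, and all 8 were found among the 12786 genes listed in at least 1 of the 3 deposited tables. The tables that set either siRNA group against Vehicle listed all 8. The table that set the siRNA groups against each other listed 7, without Fosb, whose counts in all 12 samples came from the other tables.

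The cells were GT1-7, immortalised mouse neurons of the hypothalamus that release gonadotropin-releasing hormone (GnRH), all grown in DMEM with 10% fetal bovine serum. The Klf4 siRNA group (4 samples) and the Scramble group (4 samples) were transfected for 24 h with an siRNA against the zinc finger factor Klf4 or with a control siRNA, using Lipofectamine 2000 in Opti-MEM I. The Vehicle group (4 samples) was deprived of serum for 6 h and then kept for 1 h in DMEM without Ca2+, with no transfection described. Klf4 siRNA against Scramble therefore differs in the siRNA alone, by the labels, whereas either siRNA group differs from Vehicle in transfection, medium, serum and Ca2+ at once, and these cannot be told apart. The labels do not say whether samples came from separate cultures, so p-values measure the spread between these samples, which may be technical.

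Total counts per sample were 30041486 to 33481453 with Klf4 siRNA, 25992363 to 39674984 with Scramble and 28451562 to 35560442 in Vehicle. Levels below are CPM, counts relative to a library size scaled by TMM. Klf4 itself averaged 1.38 ± 0.359 CPM in the Klf4 siRNA samples, 4.01 ± 0.609 CPM in the Scramble samples and 4.78 ± 0.555 CPM in the Vehicle samples (SD, n = 4 each), and was 2.89-fold lower with Klf4 siRNA than with Scramble (log2 fold change -1.53, SE 0.19, edgeR adjusted p = 5.8e-05). Klf4 siRNA sample 1 differed from samples 2, 3 and 4 of its group by a median of 0.118 to 0.127 on the log2 scale, against 0.0749 to 0.11 among those 3, 0.0629 to 0.0865 among the Scramble samples and 0.0789 to 0.134 among the Vehicle samples. Of the neuronal and GnRH markers, 6 of 8 were listed, with a summed level of 1160 to 1340 CPM with Klf4 siRNA, 2030 to 2370 CPM with Scramble and 979 to 1150 CPM in Vehicle, while Snap25 and Stmn2 were not in the tables. Gnrh1 made up most of this sum, at 745 ± 66.1 CPM with Klf4 siRNA, 1690 ± 139 CPM with Scramble and 676 ± 63.6 CPM in Vehicle. The other markers did not all follow it: with Klf4 siRNA over Scramble, Eno2 rose (log2 0.56, edgeR adjusted p = 6.0e-06), Map2 fell (log2 -0.63, edgeR adjusted p = 5.4e-06), and Tubb3, Uchl1 and Syp did not pass the test. Fibroblast and pericyte markers (4 of 5 listed) summed to 84.2 to 97.1 CPM with Klf4 siRNA, 109 to 116 CPM with Scramble and 145 to 152 CPM in Vehicle, and endothelial markers (2 of 4) to 15.5 to 20.7 CPM with Klf4 siRNA, 33.6 to 41.8 CPM with Scramble and 47.9 to 54.6 CPM in Vehicle. The endothelial sum was nearly all Kdr, while Tek averaged 0.824 ± 0.323 CPM with Klf4 siRNA, 0.142 ± 0.141 CPM with Scramble and 0.11 ± 0.058 CPM in Vehicle, and rose with Klf4 siRNA over Scramble (edgeR adjusted p = 0.00275) and over Vehicle (edgeR adjusted p = 2.8e-04). The astrocyte marker Aldh1l1 (1 of 4) ran from 20.4 to 26.2 CPM with Klf4 siRNA, from 10.3 to 13.8 CPM with Scramble and from 14.1 to 20.5 CPM in Vehicle, and the microglial marker Csf1r (1 of 5) from 28.8 to 32.6 CPM with Klf4 siRNA, from 24.9 to 27.3 CPM with Scramble and from 34.6 to 41.9 CPM in Vehicle. Oligodendrocyte markers (2 of 5) summed to 7.88 CPM or less, and Gfap, Aqp4, Olig2, Sox10, Mog, Aif1, Ptprc, Cx3cr1, Itgam, Pecam1 and Cdh5 were not in the tables. The part of these markers in the results was not tested. In bulk RNA, fewer cells of a kind and less RNA per cell cannot be told apart.

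AP-1 proteins bind DNA as pairs joined through a leucine zipper. JUN proteins can pair with each other or with FOS proteins, FOS proteins need a JUN partner, and ATF3 and the small MAF proteins pair within the wider basic leucine zipper class. FOS, FOSB, JUN, JUNB and ATF3 genes are immediate-early genes, which cells transcribe within minutes of a growth factor, Ca2+ or stress signal through MAP kinases, serum response factor and CREB, and whose mRNAs are short-lived, whereas JUND is made more steadily. In GnRH neurons, FOS and JUN proteins are known as relays of hormone and transmitter signals to the nucleus.

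The 8 genes split by how far their mRNA differed between the groups. The mRNAs of Fos, Fosb, Junb, Atf3 and Maff were lowest with Scramble, higher with Klf4 siRNA and highest in Vehicle by group mean, and each was at least 2-fold lower in either siRNA group than in Vehicle. The mRNAs of Jun and Jund stayed within 1.32-fold in every comparison, and Fosl2 lay between, 1.93-fold lower with Klf4 siRNA and 1.69-fold lower with Scramble than in Vehicle. The sequences just before the transcription start are shown for the 5 genes with the wide range, with Jun for contrast. Each run is the 250 bases before a RefSeq start (build GRCm38.p6), read 5′ to 3′ on the gene's strand, and capitals mark TGACG or its complement CGTCA, the core of the cAMP response element that CREB and ATF proteins recognise, and TGACATCA, the related octamer known from the JUN promoter. They lie at chr12:85473640-85473889 (Fos, plus strand), chr7:19310046-19310295 (Fosb, minus), chr8:84978749-84978998 (Junb, minus), chr1:191183334-191183583 (Atf3, minus), chr15:79347270-79347519 (Maff, plus, the start numbered 2 of 3) and chr4:95052223-95052472 (Jun, minus).

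Fos: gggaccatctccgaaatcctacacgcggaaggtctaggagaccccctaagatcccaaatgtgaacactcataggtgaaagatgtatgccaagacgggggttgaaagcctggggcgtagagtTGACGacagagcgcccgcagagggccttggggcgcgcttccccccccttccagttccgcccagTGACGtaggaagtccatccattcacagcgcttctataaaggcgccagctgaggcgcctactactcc
Fosb: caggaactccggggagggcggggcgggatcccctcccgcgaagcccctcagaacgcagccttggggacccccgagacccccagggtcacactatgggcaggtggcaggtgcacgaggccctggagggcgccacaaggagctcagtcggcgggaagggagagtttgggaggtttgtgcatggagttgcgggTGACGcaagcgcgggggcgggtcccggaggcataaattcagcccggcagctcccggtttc
Junb: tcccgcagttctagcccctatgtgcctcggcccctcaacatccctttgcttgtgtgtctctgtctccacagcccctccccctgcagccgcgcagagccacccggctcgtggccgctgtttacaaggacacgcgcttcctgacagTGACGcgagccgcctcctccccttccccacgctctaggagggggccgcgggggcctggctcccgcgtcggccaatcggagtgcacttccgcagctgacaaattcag
Atf3: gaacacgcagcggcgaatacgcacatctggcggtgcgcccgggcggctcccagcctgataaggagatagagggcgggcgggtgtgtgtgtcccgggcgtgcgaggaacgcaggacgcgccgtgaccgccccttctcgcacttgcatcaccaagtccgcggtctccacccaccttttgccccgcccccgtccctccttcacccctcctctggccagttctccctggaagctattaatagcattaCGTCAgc
Maff: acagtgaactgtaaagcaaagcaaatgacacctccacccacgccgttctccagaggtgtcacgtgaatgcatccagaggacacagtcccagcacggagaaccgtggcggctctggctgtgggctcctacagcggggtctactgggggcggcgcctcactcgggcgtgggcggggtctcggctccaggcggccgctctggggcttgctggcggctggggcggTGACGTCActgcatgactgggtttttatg
Jun: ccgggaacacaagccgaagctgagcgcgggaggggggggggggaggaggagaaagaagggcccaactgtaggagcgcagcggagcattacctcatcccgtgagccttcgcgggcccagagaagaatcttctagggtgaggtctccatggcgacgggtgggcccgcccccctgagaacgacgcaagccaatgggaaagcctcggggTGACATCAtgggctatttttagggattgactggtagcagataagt

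TGACG was found on either strand before Fos (starting at -129 and -66 from the RefSeq start), Fosb (-60), Junb (-106), Atf3 (-7) and Maff, where it forms the full palindrome TGACGTCA (-29). These are 5 of the 8 members, against 17.8% of 32851 RefSeq windows of the same length. For Maff this rests on the starts numbered 2 and 3. The window of Maff start 1 (chr15:79346371-79346620), directly before the GENCODE gene, held none of the letters searched. TGACGTCA was in 1.55% of all windows. The Jun octamer TGACATCA was found before Jun (-45) and before another Maff start (-45), against 2.93% of all windows. The AP-1 site TGANTCA and the CArG box, which serum response factor binds, were in none of the members' windows, against 6.75% and 1.47% of all windows. Only 250 bases before each start were searched, so sites farther upstream or within the gene would be missed. The GC box GGGCGG was found in 6 members (32.7% of all windows) and CACCC in 7 (52.0%), both letters that Sp1 and KLF factors can bind. TGACGTCA contains TGACG. The letters were chosen after the sequences had been read, and Maff was searched at 3 starts, whereas the shares of all windows are per window. The Fosl2 window lies within an annotated exon and the Jund start of RefSeq lies upstream of the GENCODE gene. The printed Atf3 and Maff windows lie inside the spans of their GENCODE genes, before a RefSeq start but not before the gene. A match, or the lack of one, therefore describes the sequence only, and its relation to the mRNA levels was not tested.

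Levels of different genes were compared per kilobase, as the deposited RPKM. Jund, Jun and Junb share 877, 232 and 173 exon bases with genes on the other strand. Their place in the order depends on how reads there were counted, which was not tested. In Vehicle samples Junb (122 ± 30.8 RPKM, SD, n = 4) and Jund (121 ± 6.23 RPKM) were highest and overlapped, followed by Atf3 (86.5 ± 5.91 RPKM), Jun (68.0 ± 11.9 RPKM) and Fos (43.2 ± 17.7 RPKM). The lowest Atf3 value (78.1 RPKM) was level with the highest Jun value (78.0 RPKM), and Jun and Fos overlapped. With Klf4 siRNA the order was Jund (99.0 ± 28.5 RPKM), Jun (60.2 ± 6.66 RPKM), Junb (42.7 ± 3.13 RPKM), Atf3 (32.4 ± 4.33 RPKM) and Fos (9.81 ± 0.641 RPKM), where only Jund and Jun overlapped. With Scramble the same order held without overlap: Jund 91.2 ± 3.47, Jun 58.4 ± 5.24, Junb 26.3 ± 1.23, Atf3 16.4 ± 0.802 and Fos 6.33 ± 0.611 RPKM. Fosl2, Maff and Fosb closed the order in each group, at 2.22, 1.12 and 0.102 RPKM with Klf4 siRNA, 2.55, 0.6 and 0.0656 RPKM with Scramble and 4.31, 2.71 and 0.275 RPKM in Vehicle.

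**Figure D1:**
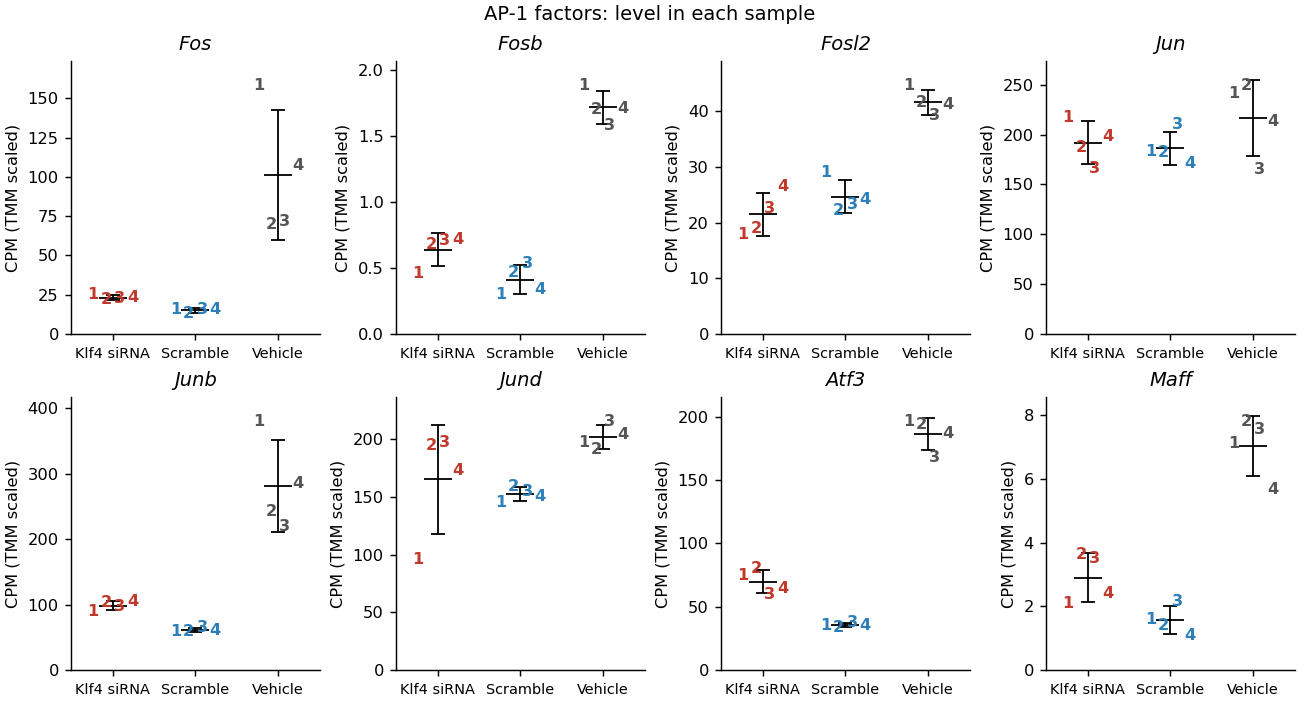
Level of each AP-1 gene in CPM (vertical axes, from 0, each with its own scale) in the Klf4 siRNA, Scramble and Vehicle groups; the digits are the sample numbers, the long bars the group means and the whiskers 1 SD (n = 4). Fos, Fosb, Junb, Atf3 and Maff stand highest in Vehicle, Vehicle samples 1 and 4 hold the highest Fos and Junb, and Klf4 siRNA sample 1 lies below the others for Jund.

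Fos, the FOS protein that pairs with JUN to form the classic AP-1 dimer, had the widest range of the 8. It measured 25.1, 21.6, 22.3 and 23.2 CPM in Klf4 siRNA samples 1 to 4, 15.3, 12.8, 15.8 and 15.7 CPM in the Scramble samples and 158, 69.5, 71.4 and 107 CPM in the Vehicle samples. The 3 groups did not overlap, and Vehicle samples 1 and 4 stood above samples 2 and 3. Fos was 1.56-fold higher with Klf4 siRNA than with Scramble (log2 0.64, SE 0.09, edgeR adjusted p = 9.0e-05). Against Vehicle it was 4.37-fold lower with Klf4 siRNA (log2 -2.13, SE 0.22, adjusted p = 5.6e-06 by edgeR) and 6.82-fold lower with Scramble (log2 -2.77, SE 0.22, adjusted p = 3.3e-07 by edgeR). The spread within Vehicle was wide, with a coefficient of variation of 41.0%, against 6.53% with Klf4 siRNA and 9.65% with Scramble. The gene lies at chr12:85473890-85477273 on the plus strand (mm10).

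Fosb, a FOS protein best known in neurons for its long-lived splice form, was the least abundant member. It had 15, 22, 24 and 22 counts in Klf4 siRNA samples 1 to 4, 12, 16, 14 and 12 counts in the Scramble samples and 56, 55, 44 and 59 counts in the Vehicle samples. That is 0.64 ± 0.122 CPM with Klf4 siRNA, 0.41 ± 0.111 CPM with Scramble and 1.72 ± 0.122 CPM in Vehicle (SD, n = 4 each), and Vehicle stood clear of both siRNA groups, which overlapped each other. Fosb fell 2.66-fold with Klf4 siRNA against Vehicle (log2 -1.41, SE 0.22, edgeR adjusted p = 2.0e-04) and 4.27-fold with Scramble against Vehicle (log2 -2.09, SE 0.24, edgeR adjusted p = 7.3e-06). Between Klf4 siRNA and Scramble the ratio was 1.6 (log2 0.68, 95% interval 0.08 to 1.27, edgeR adjusted p = 0.102), from a fit over the genes of all 3 tables that was added after the data were seen. The gene, at chr7:19302696-19310051 on the minus strand, makes a full-length and a truncated protein that gene counts do not separate.

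Fosl2, also called Fra-2, is a FOS protein that lacks a strong transactivation region. It measured 17.8, 19.0, 22.6 and 26.5 CPM in Klf4 siRNA samples 1 to 4, 29.0, 22.2, 23.3 and 24.2 CPM in the Scramble samples and 44.6, 41.6, 39.2 and 41.3 CPM in the Vehicle samples. The siRNA groups overlapped, and all 8 of their samples lay below every Vehicle sample. Fosl2 fell 1.93-fold with Klf4 siRNA (log2 -0.95, SE 0.11, edgeR adjusted p = 1.6e-05) and 1.69-fold with Scramble (log2 -0.75, SE 0.08, edgeR adjusted p = 4.1e-06), both against Vehicle. Klf4 siRNA and Scramble differed by -0.20 on the log2 scale (95% interval -0.43 to 0.04, edgeR adjusted p = 0.232). Without Klf4 siRNA sample 4, which held the highest of the group, the difference was -0.31 (edgeR adjusted p = 0.0453). With each sample left out in turn it ranged from -0.31 to -0.10 (edgeR adjusted p up to 0.576). The gene spans chr5:32135801-32157842 on the plus strand.

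Jun, the founding JUN protein and the strongest transactivator of the branch, did not pass the test in any comparison. It measured 217, 187, 166 and 198 CPM in Klf4 siRNA samples 1 to 4, 183, 182, 210 and 171 CPM in the Scramble samples and 241, 249, 165 and 213 CPM in the Vehicle samples. All 3 groups overlapped, and Vehicle sample 3 was the lowest of the 12. The log2 difference was 0.05 between Klf4 siRNA and Scramble (95% interval -0.11 to 0.20, edgeR adjusted p = 0.676), -0.17 between Klf4 siRNA and Vehicle (-0.39 to 0.05, edgeR adjusted p = 0.239) and -0.22 between Scramble and Vehicle (-0.42 to -0.01, edgeR adjusted p = 0.0919). Without Vehicle sample 3, the log2 difference from Vehicle was -0.28 with Klf4 siRNA (edgeR adjusted p = 0.0202) and -0.33 with Scramble (edgeR adjusted p = 0.00266). With each sample left out in turn, it ranged from -0.28 to -0.10 with Klf4 siRNA (edgeR adjusted p up to 0.524). With Scramble it ranged from -0.33 to -0.15 (edgeR adjusted p up to 0.243). Jun, at chr4:95049034-95052222 on the minus strand, shares 232 exon bases with the antisense gene Junos, and since the library kit does not mark strand, reads of the pair cannot be told apart.

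Junb, a JUN protein that activates weakly and can hold back Jun, changed in all 3 comparisons. It measured 88.8, 103, 96.3 and 105 CPM in Klf4 siRNA samples 1 to 4, 59.3, 58.1, 64.6 and 60.2 CPM in the Scramble samples and 379, 242, 219 and 285 CPM in the Vehicle samples. The 3 groups did not overlap, and Vehicle samples 1 and 4 were again above samples 2 and 3. Junb rose 1.63-fold with Klf4 siRNA over Scramble (log2 0.70, SE 0.06, edgeR adjusted p = 2.0e-06), while it fell 2.84-fold with Klf4 siRNA (log2 -1.51, SE 0.14, edgeR adjusted p = 1.9e-06) and 4.64-fold with Scramble (log2 -2.21, SE 0.13, edgeR adjusted p = 2.2e-08) against Vehicle. The gene lies at chr8:84974484-84978718 on the minus strand and shares 173 exon bases with Prdx2 on the other strand, which is listed in the tables too.

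Jund, the JUN protein that cells make steadily, measured 95.8, 195, 197 and 173 CPM in Klf4 siRNA samples 1 to 4, 145, 159, 155 and 150 CPM in the Scramble samples and 197, 191, 215 and 204 CPM in the Vehicle samples. Klf4 siRNA sample 1 was the lowest of the 12, and the other 3 of its group lay above every Scramble sample. Over all samples Klf4 siRNA and Scramble differed by 0.12 on the log2 scale (95% interval -0.20 to 0.45, edgeR adjusted p = 0.595), and without Klf4 siRNA sample 1 by 0.31 (edgeR adjusted p = 2.9e-04). Jund fell 1.32-fold with Scramble against Vehicle (log2 -0.40, SE 0.05, edgeR adjusted p = 1.1e-05), with no overlap. With Klf4 siRNA against Vehicle the difference was -0.28 (95% interval -0.61 to 0.05, edgeR adjusted p = 0.201), or -0.33 with sample numbers as a block (edgeR adjusted p = 0.0472). It was -0.11 without Klf4 siRNA sample 1 (edgeR adjusted p = 0.159) and -0.04 without Klf4 siRNA samples 1 and 4 (edgeR adjusted p = 0.633). The longest Jund transcript is 67.1% G and C, at the 99.9th percentile of the genes that averaged at least 4 CPM. Of those genes, the 1100 with the highest G and C content (at least 57.8%) had a median log2 deviation of -0.10 in Klf4 siRNA sample 1. It was 0.08, 0.05 and -0.01 in Klf4 siRNA samples 2, 3 and 4. The part of base composition in the Jund value was not tested. Jund, at chr8:70698949-70700616 on the plus strand, shares 877 of its 1668 exon bases with the antisense gene Gm11175. Reads of this pair cannot be told apart either.

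Atf3, a stress-induced member that represses many promoters as a homodimer, had 74.6, 80.3, 59.9 and 64.5 CPM in Klf4 siRNA samples 1 to 4, 35.4, 33.4, 37.6 and 35.0 CPM in the Scramble samples and 196, 194, 168 and 187 CPM in the Vehicle samples. The 3 groups did not overlap, and the lowest Klf4 siRNA sample was well above the highest Scramble sample. Atf3 rose 1.98-fold with Klf4 siRNA over Scramble (log2 0.99, SE 0.08, edgeR adjusted p = 1.9e-06) and fell 2.65-fold with Klf4 siRNA (log2 -1.41, SE 0.09, edgeR adjusted p = 5.9e-08) and 5.28-fold with Scramble (log2 -2.40, SE 0.06, edgeR adjusted p = 4.1e-12) against Vehicle. The gene lies at chr1:191170296-191218039 on the minus strand.

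Maff, a small MAF protein with a zipper but no transactivation region, measured 2.08, 3.62, 3.51 and 2.4 CPM in Klf4 siRNA samples 1 to 4 (68 to 119 counts), 1.6, 1.41, 2.14 and 1.08 CPM in the Scramble samples (38 to 65 counts) and 7.1, 7.79, 7.54 and 5.68 CPM in the Vehicle samples (196 to 252 counts). Klf4 siRNA sample 1 lay just under Scramble sample 3, so these groups overlapped, and Vehicle stood clear of both. Maff rose 1.9-fold with Klf4 siRNA over Scramble (log2 0.92, SE 0.24, edgeR adjusted p = 0.00879) and fell 2.4-fold with Klf4 siRNA (log2 -1.26, SE 0.18, edgeR adjusted p = 1.1e-04) and 4.57-fold with Scramble (log2 -2.19, SE 0.18, edgeR adjusted p = 4.3e-07) against Vehicle. The gene lies at chr15:79346621-79359076 on the plus strand.

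Counted together, 4 of 7 tested members rose with Klf4 siRNA over Scramble (Fos, Junb, Atf3 and Maff) and 0 fell. Among all 12663 genes tested, 18.5% were called higher and 17.5% lower by edgeR at an adjusted p under 0.05. The members' median log2 fold change was 0.64, against 0.0 over all genes, and none of them reached 2-fold, a size that 2.73% of all genes reached. Of the 8 members, 3 (Fos, Junb and Atf3) had groups without overlap, as did 34.6% of all genes. Ranked by log2 fold change from the top, Atf3 came 211, Maff 238, Junb 373 and Fos 437.

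Against Vehicle, 6 of 8 members fell with Klf4 siRNA and 0 rose, where 21.3% of 12684 genes were called lower and 24.1% higher. With Scramble, 7 of 8 fell and 0 rose, where 26.6% of 12633 genes were called lower and 27.3% higher. The members' median log2 fold change was -1.34 with Klf4 siRNA, against 0.02 over all genes, and -2.14 with Scramble, against 0.01 over all genes. Members without overlap numbered 6 of 8 with Klf4 siRNA (41.1% of all genes) and 7 of 8 with Scramble (48.4% of all genes). Scaled by total counts alone, the genes called numbered 3758 higher and 2192 lower with Klf4 siRNA, against 3054 and 2701 with TMM, and 4248 higher and 2614 lower with Scramble, against 3445 and 3365 with TMM, while the members called stayed at 6 and 7. By size, 5 members were at least 2-fold lower in each siRNA group, against 5.39% of all genes at least 2-fold apart with Klf4 siRNA and 5.15% with Scramble. From the lowest log2 fold change with Scramble, Fos ranked 15, Atf3 21, Junb 39, Maff 43 and Fosb 56.

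The 3 comparisons share their samples, so their values are set side by side only. As a percent of the Vehicle level, Fos stood at 22.9% with Klf4 siRNA and 14.7% with Scramble, and Junb at 35.2% with Klf4 siRNA and 21.6% with Scramble. Atf3 stood at 37.7% with Klf4 siRNA and 19.0% with Scramble, Fosb at 37.6% with Klf4 siRNA and 23.4% with Scramble, and Maff at 41.7% with Klf4 siRNA and 21.9% with Scramble. Fosl2 was at 51.9% with Klf4 siRNA and 59.3% with Scramble, the only called member whose mean was the lower of the pair with Klf4 siRNA. The authors' deposited table for Klf4 siRNA against Scramble marked none of the 7 listed members, since its rule also asked for an absolute log2 fold change of 1 and Atf3 stood at 0.99 there. The authors' deposited tables for Klf4 siRNA against Vehicle and for Scramble against Vehicle each marked 5 members as lower: Fos, Fosb, Junb, Atf3 and Maff.

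**Figure D2:**
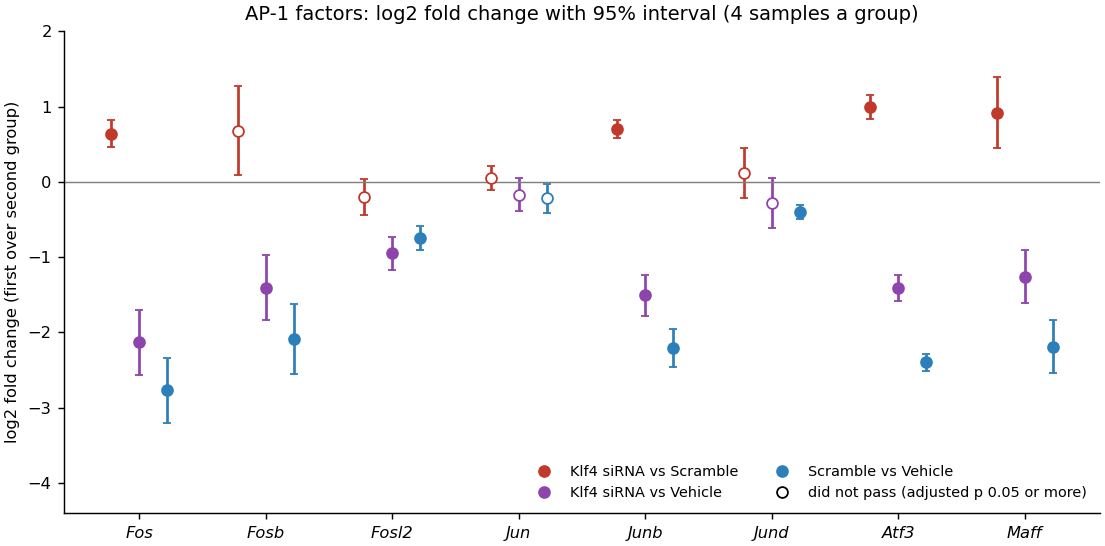
Log2 fold change of each AP-1 gene (vertical axis) in the comparisons Klf4 siRNA over Scramble, Klf4 siRNA over Vehicle and Scramble over Vehicle, with 95% intervals (4 samples a group); filled points passed the edgeR test and open points did not. Fos, Junb, Atf3 and Maff lie above 0 with Klf4 siRNA over Scramble and below -1 against Vehicle in both siRNA groups, while Jun stays near 0 throughout.

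The makeup of the 8 mRNAs shifted with their levels. Their summed level was 212, 270, 253 and 255 RPKM in Klf4 siRNA samples 1 to 4, 197, 201, 214 and 195 RPKM in the Scramble samples and 524, 425, 391 and 451 RPKM in the Vehicle samples. Vehicle stood clear of both siRNA groups, and Klf4 siRNA sample 1 fell among the Scramble samples. The JUN branch held 81.4 ± 2.84% of the sum with Klf4 siRNA, 87.1 ± 0.74% with Scramble and 69.5 ± 0.946% in Vehicle (SD, n = 4 each), without overlap. The FOS branch held 4.96 ± 0.738% with Klf4 siRNA, 4.43 ± 0.442% with Scramble and 10.4 ± 2.57% in Vehicle, where the siRNA groups overlapped. By mean, Jund was the largest share with Klf4 siRNA (39.4 ± 8.57%) and with Scramble (45.2 ± 1.76%), although in Klf4 siRNA sample 1 Jun (32.0%) exceeded Jund (27.1%), and Jund (27.4 ± 4.3%) and Junb (27.0 ± 3.27%) were about level in Vehicle. Atf3 made up 13.2 ± 2.39% with Klf4 siRNA, 8.13 ± 0.304% with Scramble and 19.4 ± 1.59% in Vehicle. The ratio of FOS branch to JUN branch ran from 0.0512 to 0.0768 with Klf4 siRNA, from 0.0439 to 0.056 with Scramble and from 0.115 to 0.202 in Vehicle. These shares are of mRNA, are not a measure of dimers, and were not tested. Those of Jund, Jun and Junb also depend on how reads in exon bases shared with genes on the other strand were counted.

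**Figure D3:**
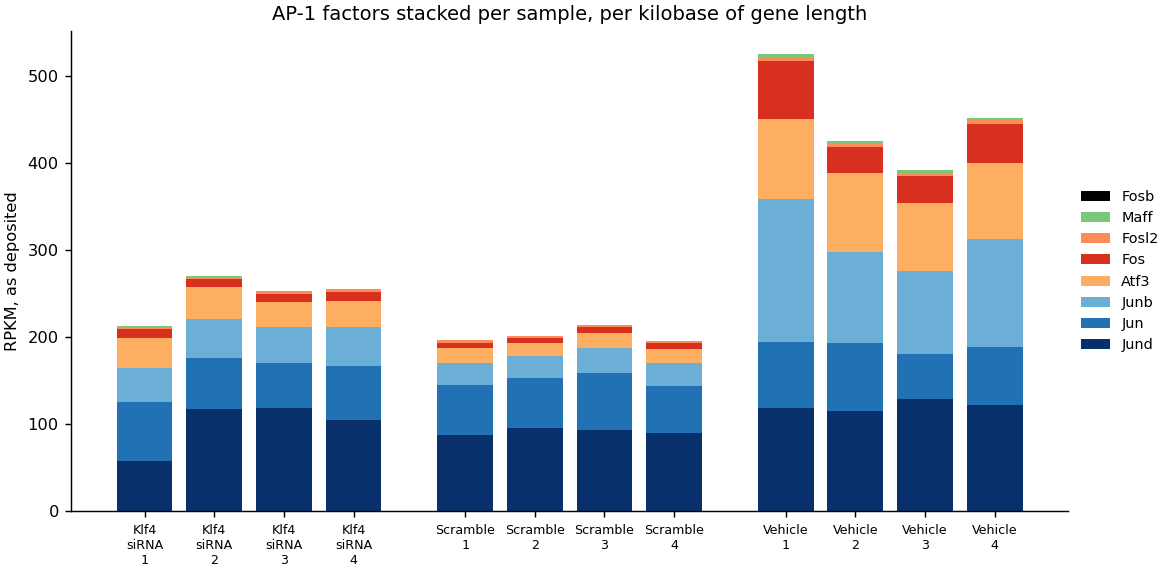
Deposited RPKM of the 8 AP-1 genes stacked per sample (vertical axis, from 0), with the 4 Klf4 siRNA samples at the left, then the Scramble and Vehicle samples. The stacks reach 391 to 524 RPKM in Vehicle and 195 to 270 RPKM in the siRNA groups, and the Fos, Junb and Atf3 layers are each thicker in every Vehicle sample than in any siRNA sample.

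Other immediate-early genes also fell in the siRNA groups against Vehicle. Of 17 tested, 12 fell and 3 rose with Klf4 siRNA against Vehicle (median log2 fold change -0.63), and 12 fell and 2 rose with Scramble against Vehicle (median -1.12). Among all genes, 21.3% were called lower and 24.1% higher with Klf4 siRNA against Vehicle, and 26.6% lower and 27.3% higher with Scramble. With Klf4 siRNA over Scramble, 18.5% of all genes were called higher and 17.5% lower. Myc, a growth-promoting transcription factor, averaged 23.3 ± 1.18 CPM with Klf4 siRNA and 71.3 ± 8.62 CPM in Vehicle (SD, n = 4 each, log2 -1.60, edgeR adjusted p = 1.4e-08). Egr1, a zinc finger factor, averaged 82.5 ± 4.65 CPM with Klf4 siRNA and 459 ± 166 CPM in Vehicle (log2 -2.46, edgeR adjusted p = 3.9e-07). Klf10 (log2 -1.12) and Gadd45b (log2 -1.27) were among those that fell with Scramble against Vehicle (edgeR adjusted p = 2.1e-10 and 1.0e-08). With Klf4 siRNA over Scramble, 7 of 16 rose and 3 fell (median 0.20, with 1 fall in place of 3 without Scramble sample 2 or 3), led by the antiproliferative Btg2 (log2 1.32, edgeR adjusted p = 1.3e-07) and Myc (log2 1.23, edgeR adjusted p = 1.4e-07). The nuclear receptors Nr4a1 (log2 -0.50, edgeR adjusted p = 0.0277) and Nr4a2 (log2 -0.92, edgeR adjusted p = 7.9e-04) and the synaptic scaffold Homer1 (log2 -0.33, edgeR adjusted p = 0.0264) were the 3 that fell, Nr4a2 and Homer1 being named after their values were seen.

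MAP kinase cascades end in kinases that phosphorylate AP-1 proteins and the factors at their promoters. For the counts below, 18.5% of all genes were called higher and 17.5% lower with Klf4 siRNA over Scramble. Against Vehicle, 24.1% of all genes were called higher and 21.3% lower with Klf4 siRNA, and 27.3% higher and 26.6% lower with Scramble. Of 16 genes of these cascades tested, 0 rose and 3 fell with Klf4 siRNA over Scramble (median -0.01), namely Mapk7 (ERK5, log2 -0.23, edgeR adjusted p = 0.0026), Mapk8 (JNK1, log2 -0.30, edgeR adjusted p = 0.0258) and Map2k7, an activator of JNK (log2 -0.15, edgeR adjusted p = 0.0441). Without Scramble sample 1 or 2, 1 fell, without Scramble sample 4, 1 rose and 1 fell, and without Klf4 siRNA sample 1, 2 rose and 2 fell. Against Vehicle, 3 rose and 3 fell with Klf4 siRNA (median 0.04) and 3 rose and 5 fell with Scramble (median 0.04). The Scramble falls numbered 2 without Scramble sample 3, Scramble sample 4 or Vehicle sample 3, and 3 without Scramble sample 1, Scramble sample 2, Vehicle sample 1 or Vehicle sample 4. Mapk12 (p38 gamma) averaged 5.92 ± 0.541 CPM with Klf4 siRNA and 3.83 ± 0.575 CPM in Vehicle (log2 0.64, edgeR adjusted p = 0.00209). Mapk11 (p38 beta) averaged 13.9 ± 1.1 CPM with Scramble and 9.25 ± 1.78 CPM in Vehicle (log2 0.58, edgeR adjusted p = 0.00139). Of 9 phosphatases of MAP kinases tested, 4 rose and 0 fell with Klf4 siRNA over Scramble (median 0.33), 0 rose and 3 fell with Klf4 siRNA against Vehicle (median -0.12), and 0 rose and 7 fell with Scramble against Vehicle (median -0.60). Dusp4 averaged 8.5 ± 1.79 CPM with Klf4 siRNA and 2.41 ± 0.696 CPM with Scramble (log2 1.80, edgeR adjusted p = 1.6e-05). Dusp6, which acts on ERK, averaged 13.1 ± 1.5 CPM with Klf4 siRNA, 6.61 ± 0.713 CPM with Scramble and 29.4 ± 2.03 CPM in Vehicle, a log2 difference of 0.99 between the siRNA groups (edgeR adjusted p = 1.7e-05) and of -2.15 between Scramble and Vehicle (edgeR adjusted p = 4.7e-10). Dusp1 rose by 0.58 on the log2 scale with Klf4 siRNA over Scramble (edgeR adjusted p = 2.7e-05).

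Genes for factors that act on the FOS and JUN promoters, such as Srf, Elk1, Creb1 and the Mef2 genes, differed by less than 0.5 on the log2 scale in each comparison. With Klf4 siRNA over Scramble, 2 of 16 rose (Mef2b 0.38 and Stat3 0.26 on the log2 scale, edgeR adjusted p = 8.4e-04 and 0.00351) and 2 fell (Mef2a -0.20 and Creb1 -0.25, edgeR adjusted p = 0.0237 and 0.0271). Both falls lost the call when Klf4 siRNA sample 2, Klf4 siRNA sample 3 or Scramble sample 2 was left out, and 1 gene fell without Scramble sample 1 or 3. Against Vehicle, 3 rose and 4 fell with Klf4 siRNA (median -0.05, 2 and 2 without Klf4 siRNA sample 3 or Vehicle sample 3, 3 and 2 without Klf4 siRNA sample 2 or Vehicle sample 1 or 4), and 4 rose and 7 fell with Scramble (median 0.04, 3 and 3 without Scramble sample 2 or 3, 4 and 3 without Scramble sample 4, 5 and 4 without Vehicle sample 1, 4 and 4 without Vehicle sample 2, 5 and 2 when scaled by total counts alone). Srf rose by 0.36 with Klf4 siRNA against Vehicle (edgeR adjusted p = 0.00627), and Mef2d fell in both siRNA groups, by log2 fold changes against Vehicle of -0.38 with Klf4 siRNA (edgeR adjusted p = 0.00139) and -0.46 with Scramble (edgeR adjusted p = 4.3e-06). Beside these counts, 18.5% of all genes were called higher and 17.5% lower with Klf4 siRNA over Scramble. Against Vehicle, 24.1% of all genes were called higher and 21.3% lower with Klf4 siRNA, and 27.3% higher and 26.6% lower with Scramble.

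Among 20 other gene IDs of the basic leucine zipper class, 5 rose and 2 fell with Klf4 siRNA over Scramble (median 0.01). Ddit3 (CHOP), a stress factor, is listed under 2 of these IDs and counts at both among the 5 that rose. It averaged 106 ± 6.67 CPM with Klf4 siRNA and 55.3 ± 3.21 CPM with Scramble at the ID with more counts (log2 0.94, edgeR adjusted p = 1.2e-07). Bach2, a repressor that pairs with small MAF proteins, fell by 0.56 on the log2 scale (edgeR adjusted p = 0.00466). Without Klf4 siRNA samples 1 and 4, 6 rose and 5 fell, and 1 fell without Klf4 siRNA sample 2, Klf4 siRNA sample 3, or Scramble sample 1, 2 or 4. Against Vehicle, 3 rose and 8 fell with Klf4 siRNA (median -0.14) and 4 rose and 11 fell with Scramble (median -0.32), Ddit3 again counting at both IDs among the 11. Among all genes, 24.1% were called higher and 21.3% lower with Klf4 siRNA against Vehicle, and 27.3% higher and 26.6% lower with Scramble. With Klf4 siRNA over Scramble, 18.5% of all genes were called higher and 17.5% lower. Mafk, a small MAF relative of Maff, averaged 64.2 ± 5.21 CPM with Klf4 siRNA, 68.2 ± 1.76 CPM with Scramble and 135 ± 10.7 CPM in Vehicle, and fell in both siRNA groups against Vehicle (log2 -1.06 with Klf4 siRNA and -0.98 with Scramble, edgeR adjusted p = 1.3e-07 and 1.4e-08). Between the siRNA groups Mafk differed by -0.08 on the log2 scale (edgeR adjusted p = 0.294). Atf4, the driver of the integrated stress response, fell by 0.57 with Klf4 siRNA and by 0.88 with Scramble against Vehicle on the log2 scale (edgeR adjusted p = 1.2e-05 and 1.1e-07).

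Genes known as AP-1 targets in other systems were called in 1 direction with Klf4 siRNA over Scramble and in both directions against Vehicle. With Klf4 siRNA over Scramble, 12 of 17 rose and 0 fell (median 0.69). Spp1 (osteopontin) averaged 87.9 ± 16.1 CPM with Klf4 siRNA and 15.8 ± 1.8 CPM with Scramble (log2 2.48, edgeR adjusted p = 2.2e-08). The metallothionein Mt1 averaged 601 ± 81.2 CPM with Klf4 siRNA and 229 ± 26.2 CPM with Scramble (log2 1.40, edgeR adjusted p = 3.0e-07), and the adhesion receptor Cd44 rose by 0.69 on the log2 scale (edgeR adjusted p = 6.0e-06). Against Vehicle, 8 rose and 6 fell with Klf4 siRNA (median 0.24), and 2 of 16 rose and 7 fell with Scramble (median -0.13). Of all genes, 18.5% were called higher and 17.5% lower with Klf4 siRNA over Scramble. Against Vehicle those shares were 24.1% and 21.3% with Klf4 siRNA, and 27.3% and 26.6% with Scramble. The protease Mmp9 averaged 11.4 ± 1.9 CPM with Klf4 siRNA, 5.05 ± 0.416 CPM with Scramble and 0.897 ± 0.173 CPM in Vehicle, the reverse of the Fos order against Vehicle (log2 3.66 with Klf4 siRNA and 2.48 with Scramble, edgeR adjusted p = 5.0e-09 and 5.0e-08). The urokinase receptor Plaur averaged 22.7 ± 1.09 CPM with Klf4 siRNA, 16.2 ± 2.5 CPM with Scramble and 62.8 ± 1.46 CPM in Vehicle (log2 -1.46 with Klf4 siRNA and -1.95 with Scramble against Vehicle, edgeR adjusted p = 1.1e-09 and 1.2e-09). Hmox1 (heme oxygenase) fell by 1.08 with Klf4 siRNA and by 2.05 with Scramble against Vehicle on the log2 scale (edgeR adjusted p = 7.2e-08 and 1.0e-09). Spp1 did not pass with Scramble against Vehicle, at 15.8 ± 1.8 CPM with Scramble and 15.9 ± 1.81 CPM in Vehicle (edgeR adjusted p = 0.983).

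**Figure D4:**
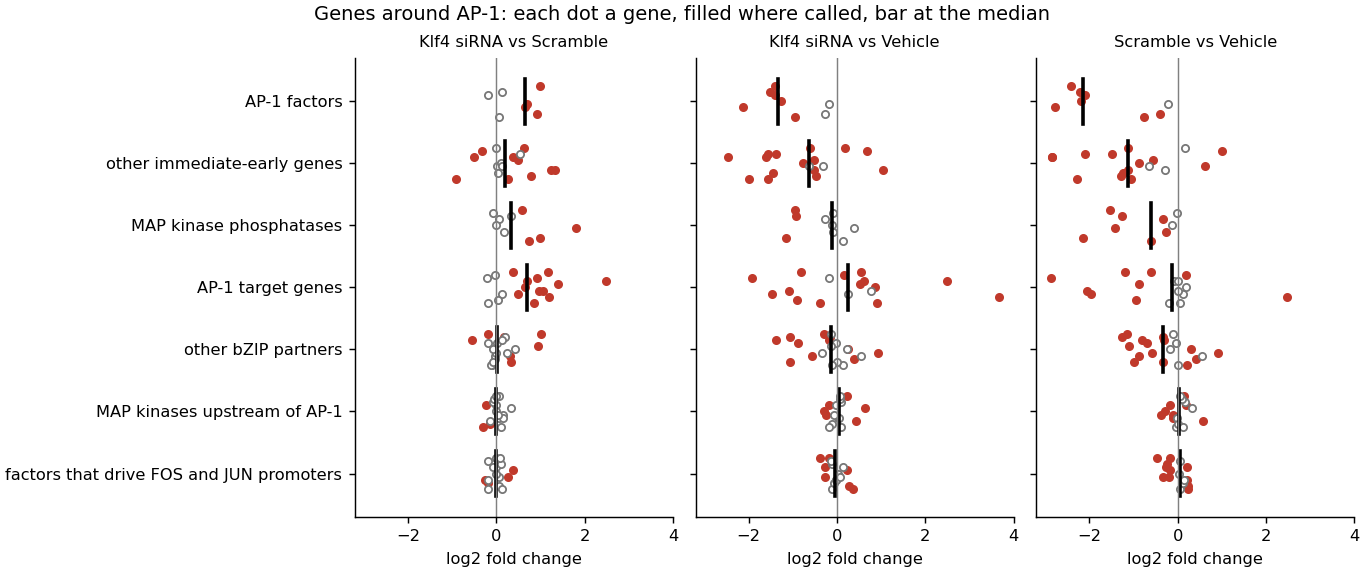
Log2 fold change (horizontal axis) of each gene (dot) in the AP-1 group and 6 further gene lists, in the 3 comparisons; filled dots passed the edgeR test and the bars mark the list medians. The AP-1 bar lies at 0.64 with Klf4 siRNA over Scramble, at -1.34 with Klf4 siRNA over Vehicle and at -2.14 with Scramble over Vehicle, while the bars of the MAP kinase cascades and of the promoter factors lie within 0.05 of 0.

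Over the 12 samples, the gene whose log2 level followed Fos most closely was Egr1, with a mean absolute difference of 0.18 after each gene was centred, followed by Socs3, an inhibitor of cytokine signalling, at 0.20, and Egr2 at 0.203, against a median of 1.04 over 10666 genes. Socs3 averaged 21.1 ± 3.91 CPM with Klf4 siRNA, 14.4 ± 2.82 CPM with Scramble and 118 ± 41.9 CPM in Vehicle. The nearest to Atf3 were Ankrd1 at 0.131, Ppp1r15a (GADD34), a phosphatase subunit of the integrated stress response, at 0.144, and Pcolce2 at 0.164, against a median of 0.869. Ppp1r15a averaged 91.9 ± 1.97 CPM with Klf4 siRNA, 51.2 ± 2.23 CPM with Scramble and 221 ± 6.66 CPM in Vehicle. The nearest to Jun were Fbxo17 at 0.0939, Fance at 0.0946 and Ptchd1 at 0.0972, against a median of 0.203, and these genes varied as little as Jun itself. The samples share their libraries and groups, so these distances describe likeness only.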

How the data were processed

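RNA-seq of 12 GT1-7 samples was used, grouped by their titles. Per the labels' protocols, the library kit was Takara SMART-Seq for low input. The authors deposited 3 tables, 1 per pair of groups, with raw counts for each gene in each sample, per the file headers. RPKM values in the deposited tables were the authors' own, and were used only to compare genes per length. The deposited log2 fold changes and p-values (with FDR) were the authors' statistics, per the file headers. A deposited score held the authors' calls, which on checking were the genes at least 2-fold apart with an FDR under 0.05. Per the submitters' processing notes, the tools were STAR, STAR-Fusion, Subread, FastQC and edgeR and the build mm10. The authors' filter on genes and their handling of reads with several matches are not stated in these sources.

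Counts were tested with edgeR 4.0.16 (quasi-likelihood fit, TMM, its default filter on low counts) in R 4.3.3 with limma 3.58.1, on the 8 samples of each comparison and all genes of its table, with Benjamini-Hochberg adjustment over those genes. A gene was called where that p was under 0.05, two-sided. The standard error is the log2 fold change over the square root of F, and 95% intervals are normal. All 8 members passed the filter in the tables that listed them. Replicates varied by 8.01% (edgeR's biological coefficient of variation, Klf4 siRNA with Scramble), 9.01% (Klf4 siRNA with Vehicle) and 7.3% (Scramble with Vehicle). CPM were scaled by TMM over all 12 samples. The test was checked on simulated counts with the same spread for every gene. That check does not cover genes with a wider spread, such as Fos in Vehicle.

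The members, lists, tests and alternatives were chosen with earlier results of these data known. The text names the 8 members, Klf4, per further list and comparison up to 4 called genes with the smallest p, and the 3 genes nearest to Fos, Jun and Atf3 by mean absolute difference of centred log2(CPM + 0.5), leaving out gene models, pseudogenes and genes whose mean log2 CPM was under 2. Hence Nr4a2 and Homer1, and the values of named genes in further comparisons, lie outside that rule. Coordinates of genes are those of GENCODE M21, on the assembly of mm10, and sequences from RefSeq (GRCm38.p6), where all 8 members matched. Proteins were not analysed here. Alternatives covered scaling, DESeq2 1.42.0, the filter, the samples in the fit, a block by sample number and each sample left out.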

Additional observations from a re-analysis of the deposited data

Results flagged for a closer look

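Within groups of 4, the level of Fosb in Klf4 siRNA sample 1 stood apart as the lowest, at 0.458 CPM (15 counts), against 0.68 to 0.713 CPM in samples 2, 3 and 4. The gap to the nearest sample was 0.87 of the group's range, above the critical value of Dixon's test for 4 samples. It was 1 of 24 groups of members examined, and chance gives about 1 in 20.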

How the results depend on the processing

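No alternative moved the count of all genes called, or of members called, by over 1.5 times. Counts in some further lists moved more, namely the MAP kinase cascades, the promoter factors and the other basic leucine zipper genes. Genes called ranged from 3531 to 4871, and members called from 4 to 5, for Klf4 siRNA against Scramble. For Klf4 siRNA against Vehicle they ranged from 4856 to 6299 genes and from 6 to 7 members, and for Scramble against Vehicle from 6085 to 6890 genes and from 7 to 8 members. Jun with Klf4 siRNA against Scramble turned to -0.01 on the log2 scale without Klf4 siRNA sample 1 (edgeR adjusted p = 0.89) and to -0.07 without samples 1 and 4 (edgeR adjusted p = 0.455), neither value being called, and the cause was not tested. With each sample left out in turn it ranged from -0.01 to 0.11. Without samples 1 and 4, Jund was 0.37 higher (edgeR adjusted p = 5.4e-05). With Klf4 siRNA over Scramble, the log2 fold change stayed within 0.57 to 0.67 for Fos, 0.67 to 0.75 for Junb, 0.91 to 1.06 for Atf3 and 0.78 to 1.22 for Maff over 17 alternatives each, and all stayed called. Of 383 values of single members under alternatives, 375 kept direction and call, 6 gained a call and 2 turned direction.

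With the sample number as a replicate block, 3880 genes and 4 members were called for Klf4 siRNA against Scramble, 5968 genes and 7 members for Klf4 siRNA against Vehicle and 6143 genes and 7 members for Scramble against Vehicle. The numbers were not taken as pairs: same-numbered samples deviated with correlations from -0.317 to 0.164 between Klf4 siRNA and Scramble, from -0.0588 to 0.292 between Klf4 siRNA and Vehicle and from -0.349 to -0.036 between Scramble and Vehicle, and not every sample correlated best with its own number. Fosb and Maff rest on few counts, so depth limits their comparisons most.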
